A study of Mus musculus with 12 samples.

Results

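Glycolysis, gluconeogenesis and glycogen genes were followed in primary mouse hepatocytes (mouse HPC), the parenchymal cells of the liver, during the first 4 h with TGF-β1. The 33 named genes are 21 of glycolysis, 4 of gluconeogenesis, 5 of glycogen storage and 3 of glucose transport and fructose entry, and a gene was taken where the probe table of the platform pairs a probe set with its symbol alone. Such probe sets were found for 29 of the 33, among 19938 genes tested in all. Gpi1, Pfkfb1 and Eno1 are not listed with those symbols and Gapdh is listed on 25 probe sets that all carry several symbols, so these 4 are not analysed here.

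RNA was measured on 12 arrays of the type Affymetrix Mouse Gene 1.0 ST, in 4 groups of 3: cells after 20 min, 2 h and 4 h with recombinant human TGF-β1 at 1 ng/mL, and untreated control cells at 0 min. All groups hold hepatocytes of male C57BL/6 mice, prepared with collagenase and kept on collagen-coated dishes in the serum-free medium HepatoZYME-SFM, with a change of medium shortly before stimulation. Control cells were taken at 0 min only, so the time since that change of medium and the treatment cannot be told apart. The 3 replicates of each group, which the study calls biological, carry the numbers 1 to 3, and values are log2 signals on which a difference of 1 is a factor of 2.

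Hepatocytes both burn and make glucose. Glycolysis splits glucose to pyruvate through hexokinases, phosphofructokinase, aldolase and pyruvate kinase, while gluconeogenesis runs back from pyruvate through pyruvate carboxylase, fructose-1,6-bisphosphatase and glucose-6-phosphatase, and the enzymes of the PFKFB family set the balance at the phosphofructokinase step by making or removing fructose-2,6-bisphosphate. Glucose that is not burned is stored as glycogen by glycogen synthase, released by glycogen phosphorylase, and both enzymes are steered by protein phosphatase 1 that glycogen-targeting subunits bring to the particle.

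Of the 29 measured genes, 4 were lower after 4 h of TGF-β1 at an adjusted p (Benjamini-Hochberg, over all 21789 tested probe sets) under 0.05 in limma, and 0 were higher, against 3.19% and 1.66% of all genes tested. Fewer cells of a type and less RNA per cell cannot be told apart in such arrays. Pfkfb3 stands at the phosphofructokinase step on chr2:11471430-11554071, Pcx at the first step of gluconeogenesis on chr19:4510472-4621752, and Gys2, on chr6:142422612-142473130, and Ppp1r3c, on chr19:36731731-36736604, at glycogen storage. All coordinates are those of RefSeq on GRCm38.p6 and all 4 genes are protein-coding. The start regions of these genes are shown because the 4 were called. None of all genes tested was called at 20 min or 2 h against control, so the shared time of the calls does not set these 4 apart. RefSeq start windows of 300 bases, 250 before the start and 50 after it, were matched for 27 of the 29 genes, with Gys2 and Ppp1r3b not among them. In the windows below, read 5′ to 3′ on the strand of the gene, capitals mark the E-box CACGTG, the recognition sequence of helix-loop-helix factors such as USF and the clock proteins.
Pfkfb3, upstream start, chr2:11553880-11554179, minus strand: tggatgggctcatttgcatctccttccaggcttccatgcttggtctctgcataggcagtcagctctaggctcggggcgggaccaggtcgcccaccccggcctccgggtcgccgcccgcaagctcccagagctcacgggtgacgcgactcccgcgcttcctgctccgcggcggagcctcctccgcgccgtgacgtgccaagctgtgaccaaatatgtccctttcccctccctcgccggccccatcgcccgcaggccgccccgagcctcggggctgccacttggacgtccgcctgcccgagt
Pfkfb3, internal start, chr2:11502041-11502340, minus strand: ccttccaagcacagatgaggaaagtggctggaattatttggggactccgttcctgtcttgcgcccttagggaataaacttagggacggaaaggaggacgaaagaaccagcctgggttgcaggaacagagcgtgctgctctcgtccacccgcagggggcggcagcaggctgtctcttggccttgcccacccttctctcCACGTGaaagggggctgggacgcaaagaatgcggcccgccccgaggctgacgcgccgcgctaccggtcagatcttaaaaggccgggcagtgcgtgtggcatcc
Pcx, upstream start, chr19:4510222-4510521, plus strand: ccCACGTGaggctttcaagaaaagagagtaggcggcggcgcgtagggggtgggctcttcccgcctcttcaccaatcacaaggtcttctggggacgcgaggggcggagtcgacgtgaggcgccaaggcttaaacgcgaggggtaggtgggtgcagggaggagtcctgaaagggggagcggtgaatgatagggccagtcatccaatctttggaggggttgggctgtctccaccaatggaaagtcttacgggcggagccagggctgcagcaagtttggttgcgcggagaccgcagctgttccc
Ppp1r3c, chr19:36736555-36736854, minus strand: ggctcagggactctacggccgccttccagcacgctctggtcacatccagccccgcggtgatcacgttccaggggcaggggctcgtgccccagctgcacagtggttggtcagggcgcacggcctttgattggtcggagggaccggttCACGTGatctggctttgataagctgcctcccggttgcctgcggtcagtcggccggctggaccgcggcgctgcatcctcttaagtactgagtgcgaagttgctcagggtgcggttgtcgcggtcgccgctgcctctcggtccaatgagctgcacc

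Counted from the start, the first base of the E-box was at position -53 of the internal window of Pfkfb3, at position -248 of the upstream window of Pcx and at position -104 of the window of Ppp1r3c. The upstream window of Pfkfb3 and the other Pcx window, chr19:4594069-4594368, held none. Searched on both strands, CACGTG was in 8 of the 42 windows of the genes described here (19.0%), against 2349 of all 32851 windows (7.15%), and the 8 genes were Pfkfb2, Pfkfb3, Pfkm, Ldha, Pcx, Fbp2, Ppp1r3c and Khk. The shorter ACGTG, which lies within CACGTG and is the core of the hypoxia response element, was in 23 of the 42 windows (54.8%), against 19.6% of all windows. TGTTTAC, a forkhead motif, was in 1 of the 42 windows (2.38%), that of Aldoc, against 3.65% of all windows. These are matches of letters and were given no test.

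Pfkfb3 makes fructose-2,6-bisphosphate, the strongest activator of phosphofructokinase. Its log2 signal in replicates 1, 2 and 3 was 12.05, 11.95 and 11.95 in control cells, 11.65, 11.87 and 11.87 at 20 min, 11.85, 11.94 and 11.81 at 2 h, and 11.30, 11.31 and 11.33 at 4 h. The 3 arrays at 4 h lay below the other 9 and close together. Pfkfb3 was lower by 0.75, 0.64 and 0.62 in the 3 replicates at 4 h, and the fit gave a log2 fold change of -0.67 ± 0.07 (SE, limma, adjusted p = 0.0015, 95% interval -0.83 to -0.51), so that the signal fell by 37.1%. All 3 arrays at 20 min and at 2 h were also below all 3 control arrays, by smaller amounts that did not pass the test in limma (log2 fold change -0.18 ± 0.07 with an adjusted p of 0.533 at 20 min, and -0.12 ± 0.07 with 0.921 at 2 h). Most of the difference lay between 2 h and 4 h. The log2 fold change was -0.55 ± 0.07 at 4 h against 2 h (adjusted p = 0.0349) and -0.48 ± 0.07 at 4 h against 20 min (adjusted p = 0.0136) in limma. Pfkfb3 was the 1 gene of the 29 past the test in each of these later comparisons, against 0.0301% of all genes lower at 4 h than at 2 h and 0.191% lower than at 20 min. It was also the 1 gene of the 29 past the moderated F test over the time-course (limma, adjusted p = 0.007), which 1.48% of all genes passed. The decrease at 4 h against control passed without the replicate factor (adjusted p = 0.00942) but not without replicate 3 (adjusted p = 0.0663). Without the replicate factor the adjusted p was 0.284 at 4 h against 2 h and 0.0804 at 4 h against 20 min.

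**Figure D1:**
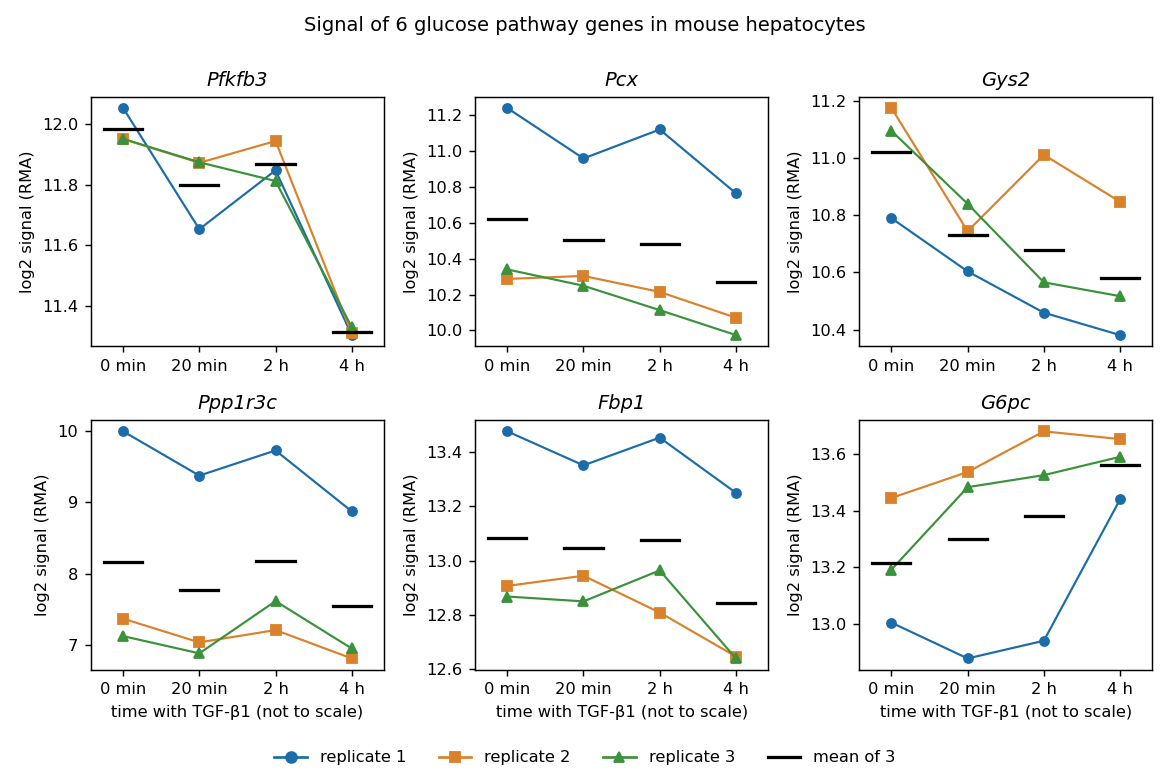
Log2 signal (RMA, vertical axis, scale set for each gene) of 6 glucose pathway genes at 0 min, 20 min, 2 h and 4 h (horizontal axis, not to scale). Lines join the arrays of 1 replicate and black bars are means of 3. The 3 Pfkfb3 values at 4 h, 11.30 to 11.33, lie below all other arrays, while replicate 1 of Pcx, Ppp1r3c and Fbp1 lies above the other replicates at every time.

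The other genes of the upper steps of glycolysis gave 0 calls at 4 h. Pfkfb2, which like Pfkfb4 belongs to the same family as Pfkfb3, differed by -0.05 ± 0.17 (95% interval -0.42 to 0.31) and Pfkfb4 by -0.04 ± 0.09 (95% interval -0.23 to 0.15) between 4 h and control. The phosphofructokinase genes were each on the lower side, Pfkl, the liver form, at -0.32 ± 0.14, Pfkp, the platelet form, at -0.30 ± 0.15 and Pfkm, the muscle form, at -0.09 ± 0.07, without passing the test (limma, adjusted p = 0.245, 0.355 and 0.544). In replicates 1, 2 and 3, Pfkl differed by -0.63, -0.46 and 0.12 and Pfkp by -0.66, -0.32 and 0.07, so replicate 3 ran the other way in both. The hexokinases Hk2 and Hk3, which liver cells hold little of, differed by 0.01 and 0.03, and both lay below the median signal of all tested probe sets (7.23), as did Pfkfb4 and the muscle bisphosphatase Fbp2.

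Lower glycolysis, from aldolase to lactate, gave 0 calls at 4 h. Aldoc, the brain form of aldolase, differed by -0.26 ± 0.11 at 4 h (limma, adjusted p = 0.257), and the muscle aldolase Aldoa, the triose isomerase Tpi1, the kinase Pgk1, the mutase Pgam1, the pyruvate kinases Pklr and Pkm, and Ldha lay between -0.13 and -0.02. For Pklr, the liver pyruvate kinase, the log2 fold change at 4 h was -0.05 ± 0.07 with a 95% interval of -0.21 to 0.10, and for Ldha, which turns pyruvate to lactate, it was -0.05 ± 0.07 with an interval of -0.19 to 0.10. These intervals leave out a decrease of the size measured for Pfkfb3. Over glycolysis as a whole, 1 of 17 genes was lower, against 3.19% of all genes, 16 did not pass, and the median log2 fold change was -0.05.

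Hk1 is reported with a limit. Its brighter probe set, with a mean signal of 12.87, differed by 0.12 ± 0.07 at 4 h (limma, adjusted p = 0.467), with the 3 arrays at 4 h (12.87, 12.90 and 13.03) above those of control cells (12.81, 12.84 and 12.80). The 1 transcript record on that probe set is also found on all 16 probe sets that the table shares between Hk1 and the ribosomal gene Rpl17, whose means were 11.74 to 12.98. The other Hk1 probe set, with 8 records and a mean of 7.17, differed by -0.14 ± 0.10 (adjusted p = 0.522), so the direction of Hk1 depended on the probe set.

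Among the genes of gluconeogenesis, 1 of 4 was lower at 4 h, against 3.19% of all genes, and the others divided in direction. Pcx, pyruvate carboxylase, makes oxaloacetate from pyruvate in the mitochondria. Its log2 signal was 10.76, 10.07 and 9.97 at 4 h, against 11.24, 10.29 and 10.34 in control cells, in replicates 1, 2 and 3. Replicate 1 stood above the other replicates at both times, so that the groups overlapped, and within each replicate the 4 h array was the lower one. The log2 fold change was -0.35 ± 0.07 (limma, adjusted p = 0.0209, 95% interval -0.51 to -0.19), so that the signal fell by 21.6%. At 20 min and 2 h Pcx differed by -0.12 and -0.14, and neither passed (adjusted p = 0.68 and 0.867). Without the replicate factor the adjusted p for Pcx at 4 h was 0.996, and without replicate 1, 2 or 3 it was 0.0557, 0.0991 and 0.227.

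G6pc, the catalytic subunit of glucose-6-phosphatase that releases free glucose, was the gene with the highest fold change of the 29 at 4 h. Its log2 signal was 13.44, 13.65 and 13.59 at 4 h, against 13.00, 13.45 and 13.19 in control cells. It was higher by 0.44, 0.21 and 0.40 in the 3 replicates, a log2 fold change of 0.35 ± 0.10 that did not pass (limma, adjusted p = 0.0797, 95% interval 0.13 to 0.57). Fbp1, the liver fructose-1,6-bisphosphatase, had 13.25, 12.65 and 12.64 at 4 h and 13.48, 12.91 and 12.87 in control cells. The differences of Fbp1 in the 3 replicates were -0.23, -0.26 and -0.23, close to each other, and its log2 fold change of -0.24 ± 0.07 did not pass either (limma, adjusted p = 0.0669). Fbp2 was at 0.06 ± 0.06. Array weights in limma took G6pc and Fbp1 past the test (adjusted p = 0.0234 and 0.0235), and a trended and robust prior took Fbp1 past it (adjusted p = 0.0125). Of 25 alternatives, G6pc stayed uncalled in 24 and Fbp1 in 23.

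The glycogen genes had the lowest median of the groups described here. All 5 were below 0 at 4 h, against 43.2% of all genes, with a median log2 fold change of -0.35. Of the 5, 2 passed the test as lower, against 3.19% of all genes. Gys2 is the liver glycogen synthase. Its log2 signal in replicates 1, 2 and 3 was 10.79, 11.17 and 11.09 in control cells, 10.60, 10.74 and 10.84 at 20 min, 10.46, 11.01 and 10.57 at 2 h, and 10.38, 10.85 and 10.52 at 4 h. Every treated array was below the control array of its replicate, while the groups overlapped, with replicate 1 the lowest of the control arrays. The log2 fold change was -0.44 ± 0.09 at 4 h (limma, adjusted p = 0.0219, 95% interval -0.64 to -0.24), so that the signal fell by 26.2%. It was -0.29 ± 0.09 at 20 min and -0.34 ± 0.09 at 2 h, where it did not pass (adjusted p = 0.448 and 0.409), and the difference between 4 h and 20 min was -0.15 ± 0.09 (adjusted p = 0.711). The call at 4 h was lost without the replicate factor (adjusted p = 0.706) and without replicate 1, 2 or 3 (adjusted p = 0.066, 0.0587 and 0.234).

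Ppp1r3c, a glycogen-targeting subunit of protein phosphatase 1 also known as PTG, had the widest replicate differences of all 29 genes. Its log2 signal in replicates 1, 2 and 3 was 10.00, 7.37 and 7.12 in control cells, 9.38, 7.03 and 6.88 at 20 min, 9.73, 7.21 and 7.61 at 2 h, and 8.88, 6.81 and 6.95 at 4 h. Replicate 1 was above the other replicates throughout, by more than any difference between times. Averaged over the 4 times, replicates 2 and 3 were at 7.10 and 7.14, below the median signal of all tested probe sets (7.23). Ppp1r3c was lower by 1.13, 0.56 and 0.17 in the 3 replicates at 4 h, with a log2 fold change of -0.62 ± 0.15 (limma, adjusted p = 0.0372, 95% interval -0.94 to -0.30). It was at -0.40 ± 0.15 at 20 min and 0.02 ± 0.15 at 2 h against control, and at -0.64 ± 0.15 at 4 h against 2 h, none of which passed (adjusted p = 0.504, 0.999 and 0.132). The call at 4 h was lost without the replicate factor (adjusted p = 0.996) and without replicate 1, 2 or 3 (adjusted p = 0.198, 0.164 and 0.0709).

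The 3 glycogen genes that did not pass were also on the lower side. Ppp1r3b, the targeting subunit that is abundant in liver, had 8.16, 8.16 and 8.18 at 4 h and 8.86, 8.52 and 8.18 in control cells, so that replicate 3 was at 8.18 in both groups (log2 fold change -0.35 ± 0.11, limma, adjusted p = 0.117). Pygl, the liver glycogen phosphorylase, was lower in all 3 replicates at 4 h, by 0.35, 0.15 and 0.11 (log2 fold change -0.20 ± 0.07, adjusted p = 0.157). Ugp2, which makes the UDP-glucose that glycogen synthase uses, was at -0.18 ± 0.10 (adjusted p = 0.426). Both the synthase and the phosphorylase gene were therefore below 0, and only the synthase passed.

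Glucose and fructose entry gave no call at 4 h. Slc2a1, the glucose transporter GLUT1, had 12.75, 11.20 and 11.21 at 4 h, against 13.25, 11.69 and 11.43 in control cells (log2 fold change -0.40 ± 0.14, limma, adjusted p = 0.162). Slc2a2, GLUT2, the main glucose transporter of hepatocytes, differed by -0.08 ± 0.10 at 4 h and by 0.22 ± 0.10 at 20 min, the second of these from -0.01, 0.29 and 0.38 in the 3 replicates. Khk, ketohexokinase, the first enzyme of fructose use, had 12.15, 12.34 and 12.16 in control cells, 11.89, 12.02 and 12.10 at 20 min, 12.04, 12.07 and 11.91 at 2 h, and 11.79, 12.07 and 12.06 at 4 h. All 9 treated Khk arrays lay below all 3 control arrays, with log2 fold changes of -0.21, -0.21 and -0.25 at 20 min, 2 h and 4 h that did not pass (adjusted p = 0.495, 0.664 and 0.113). A trended and robust prior took Khk past the test at 4 h (adjusted p = 0.0476), and in the other 24 of 25 alternatives it did not pass.

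**Figure D2:**
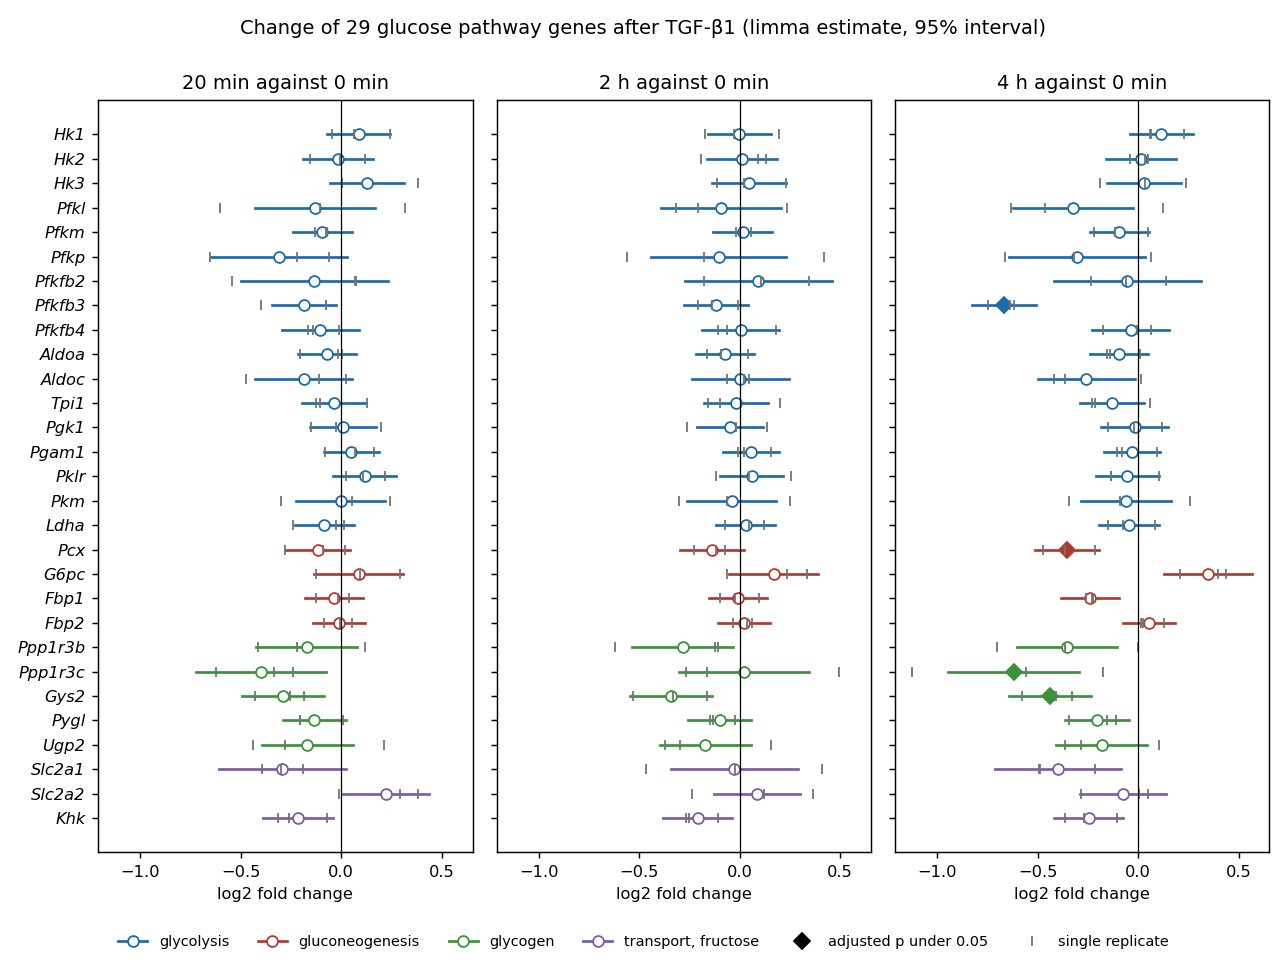
Log2 fold change against 0 min (horizontal axis) of the 29 measured genes at 20 min, 2 h and 4 h. Circles are limma estimates with 95% intervals, short ticks the 3 replicates, filled diamonds an adjusted p under 0.05. The diamonds stand at 4 h for Pfkfb3, Pcx, Ppp1r3c and Gys2, and 24 of the 29 estimates at 4 h lie below 0.

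At 4 h, the log2 fold change was below 0 for 24 of the 29, against 43.2% of all genes. The medians were -0.09 for the 29 and 0.02 for all genes. This lean was not particular to the 29. Of the lists described below, all 10 hepatocyte markers were below 0 (median -0.11), as were 17 of 23 regulators (median -0.19). Of 40 other genes of glucose and glycogen handling, 22 were below 0 (median -0.01). At an unadjusted p under 0.05, 11 of the 29 were lower and 1, G6pc, was higher, against 9.72% and 7.66% of all genes. All 3 replicates were lower for 8 of the 29 and higher for 3, against 17.6% and 18.1% of all genes. The 4 h arrays lay wholly below the control arrays for Pfkfb3 and Khk and wholly above them for Hk1 and Fbp2. That is 2 of 29 in each direction, against 5.68% and 5.55% of all genes. Hk1 was counted here, and among the 3 higher in all replicates, by its brighter probe set, while its other probe set differed by -0.14. At the threshold of the study, an adjusted p under 0.01 with a log2 change of at least 1, 0 of the 29 were called in either direction (0.0351% of all genes lower and 0.0652% higher). Between treated groups, 0 of the 29 were higher at 4 h than at 2 h (0.0502% of all genes) or than at 20 min (0.456%). At an unadjusted p under 0.05, 6 of the 29 were lower and 0 higher at 4 h than at 2 h, against 4.79% and 4.27% of all genes, and 5 were lower and 1 higher at 4 h than at 20 min, against 3.99% and 5.93%. At the threshold of the study 0 of the 29 were called there either, against 0.00502% of all genes lower and 0.0301% higher at 4 h than at 20 min.

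At 20 min and 2 h limma called 0 of the 29 genes in either direction, and 0% of all genes. At 20 min, 4 of the 29 were lower at an unadjusted p under 0.05 (Pfkfb3, Gys2, Ppp1r3c and Khk) and 1 was higher (Slc2a2), against 5.94% and 2.62% of all genes, and 22 of the 29 were below 0, against 49.4%. At 2 h, 3 of the 29 were lower at an unadjusted p under 0.05 (Gys2, Ppp1r3b and Khk) and 0 were higher, against 3.97% and 2.36% of all genes, and 16 were below 0, against 46.2%. Of the 10 hepatocyte markers, 9 were below 0 at 20 min and 10 at 2 h. Pfkfb3 and Khk were the 2 of 29 whose treated arrays lay wholly below the control arrays at 20 min (4.9% of all genes) and again at 2 h (2.54%), and 0 of 29 lay wholly above them (4.65% and 3.11%). All 3 replicates were lower for 8 of the 29 at 20 min and for 6 at 2 h, against 17.3% and 11.3% of all genes, and higher for 2 and 0, against 14.6% and 11.3%. All these comparisons use the same 3 control arrays.

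Replicate 1 stood apart for many of these genes. Its 4 arrays were all above the 8 of replicates 2 and 3 for 14 of the 29 genes, against 9.2% of all genes, and all below them for 1, Slc2a2, against 15.7%. Averaged over the 4 times, Ppp1r3c had 9.50, 7.10 and 7.14 in replicates 1, 2 and 3, Pfkp 9.08, 7.44 and 7.27, Slc2a1 13.02, 11.40 and 11.40, and Aldoc 8.37, 7.09 and 7.01. These were the 4 genes of the 29 with replicate means at least 1 apart, which 2.29% of all genes showed, and replicate 1 was the highest in each. The median range between replicate means was 0.396 for the 29 genes and 0.155 for all genes. Pfkfb3, with a range of 0.05, did not share this pattern. The labels give no reason for the difference between replicates. The study reports a strong batch effect in its mouse HPC chips, without saying which of the chips the effect set apart. It also left out 1 chip for its quality, replicate 1 at 1 h, a time that is not among the arrays used here. Whether the difference of replicate 1 is the batch effect was not tested.

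**Figure D3:**
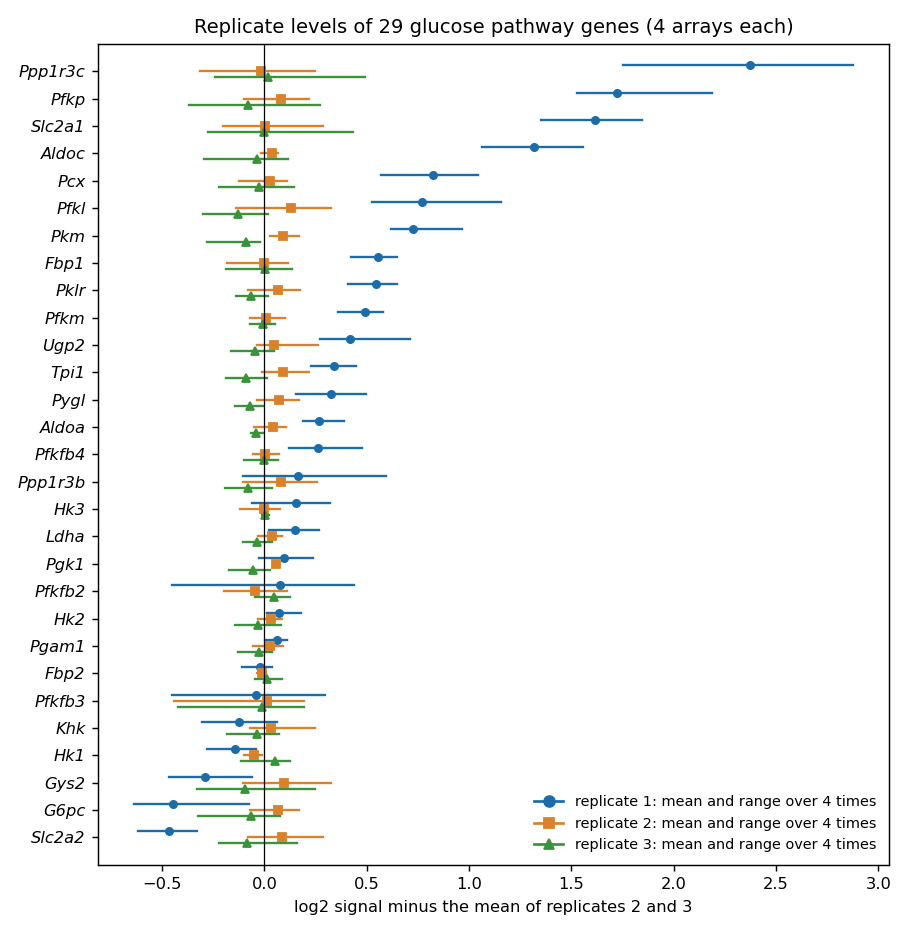
Log2 signal of each replicate minus the mean of replicates 2 and 3 (horizontal axis) for the 29 genes, as mean and range over 4 times. Replicate 1 lies to the right for Ppp1r3c, Pfkp, Slc2a1 and Aldoc, and its 4 arrays are all above the other 8 for 14 genes.

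The identity of the cells and the response to TGF-β1 were read from lists of other genes. The 10 hepatocyte markers were all measured, and 2 of them, the asialoglycoprotein receptor genes Asgr1 and Asgr2, were lower at 4 h in limma, against 3.19% of all genes. The summed linear signal of the 10 was 137673 to 145341 over the 4 h arrays, against 147525 to 154278 over the control arrays. Of 14 Kupffer cell and macrophage markers, 7 were lower at 4 h and 0 higher, against 3.19% and 1.66% of all genes. The summed signal of the 14 was 9385 to 11357 at 4 h, against 12136 to 13889 in control cells. Cd14 and Cd68, with the highest mean log2 signals of the 14 (12.49 and 11.85), weighed most in this sum. Of these, Cd14 passed and Cd68 did not (limma, adjusted p = 0.012 and 0.267). Without the replicate factor, or without replicate 3, 1 of these 7 macrophage markers, Fcer1g, still passed, and Asgr1 and Asgr2 did not (adjusted p = 0.996 each without the factor, and 0.195 and 0.293 without replicate 3). Of the 6 neutrophil, 6 stellate cell and 4 cholangiocyte markers measured 0 passed, and the 1 erythroid marker measured did not pass. Of 7 endothelial markers 1, Lyve1, was lower, against 3.19% of all genes. The adjusted p of Lyve1 in limma was 0.834 without the replicate factor and 0.209 without replicate 3. The called hepatocyte and macrophage markers were lower, as were Pfkfb3, Pcx, Gys2 and Ppp1r3c, and their part in these results was not tested. Of 5 measured targets of TGF-β, 4 were higher at 4 h, against 1.66% of all genes. Of these 4, Pmepa1 and Ccn2 passed without the replicate factor and without replicate 3.

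Other genes of glucose and glycogen handling were taken from a list of 48, of which 40 were measured and 0 passed at 4 h. The median of the 40 was -0.01. At an unadjusted p under 0.05 in limma, 6 of the 40 were lower and 3 higher, against 9.72% and 7.66% of all genes. Among the 40, Pck1, the cytosolic phosphoenolpyruvate carboxykinase, had 11.14, 8.32 and 8.45 at 4 h, against 11.66, 9.01 and 8.76 in control cells (log2 fold change -0.51 ± 0.23, adjusted p = 0.28). Pck1 was lower in all 3 replicates, and its replicate 1 was far above the other replicates at both times. With the compared groups alone it passed (adjusted p = 0.0499), and in the other 24 of 25 alternatives it did not. The muscle glycogen synthase Gys1 was at -0.58 ± 0.21 (adjusted p = 0.173), from -1.53, -0.19 and 0.00 in replicates 1, 2 and 3, so that replicate 1 carried most of it.

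The fate of pyruvate beyond glycolysis held changes in both directions. Of 17 measured genes of pyruvate dehydrogenase and the pentose phosphate pathway, 4 were lower and 2 higher at 4 h (limma, adjusted p under 0.05). Of all genes, 3.19% were lower and 1.66% higher. Pdk4, a kinase that switches pyruvate dehydrogenase off, had 11.64, 12.68 and 12.49 at 4 h, against 10.95, 11.49 and 11.54 in control cells. The 4 h arrays of Pdk4 were all above the control arrays, with a log2 fold change of 0.95 ± 0.17 (adjusted p = 0.0118). Its relatives Pdk1 and Pdk3 were lower, at -0.40 ± 0.09 and -0.46 ± 0.12 (adjusted p = 0.028 and 0.0476). Pdhb, a subunit of the dehydrogenase itself, was lower, at -0.33 ± 0.06 (adjusted p = 0.0151). In the pentose phosphate pathway Pgd, 6-phosphogluconate dehydrogenase, was higher at 0.32 ± 0.07 and Rpia, ribose-5-phosphate isomerase, was lower at -0.34 ± 0.08 (adjusted p = 0.0316 and 0.0398).

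Among 23 measured regulators and hormone-responsive genes of glucose metabolism, 4 were lower at 4 h and 0 higher, against 3.19% and 1.66% of all genes. The glucagon receptor gene Gcgr had 10.37, 9.38 and 9.25 at 4 h, against 10.80, 9.75 and 9.63 in control cells, a log2 fold change of -0.40 ± 0.08 (limma, adjusted p = 0.0142). Igfbp1, an insulin-repressed secreted binding protein, was at -0.64 ± 0.10 (adjusted p = 0.00576), Nr1d1, the clock repressor REV-ERBα, at -0.67 ± 0.12 (adjusted p = 0.0121) and Tat, tyrosine aminotransferase, at -0.31 ± 0.08 (adjusted p = 0.0463). Of 15 hypoxia-responsive genes 2 were lower and 0 higher, against the same shares of all genes. The 2 were Ndrg1 at -0.58 ± 0.10 and the oxygen sensor Egln3 at -0.58 ± 0.13 (adjusted p = 0.00796 and 0.0259). All 12 called genes of these lists had the same direction in 3 of 3 replicates, which the paired test that picked them favours. Without the replicate factor, or without replicate 3, 0 of these 12 passed, with adjusted p of 0.215 (Pdhb) to 0.996 and of 0.0666 (Egln3) to 0.398 (Tat).

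**Figure D4:**
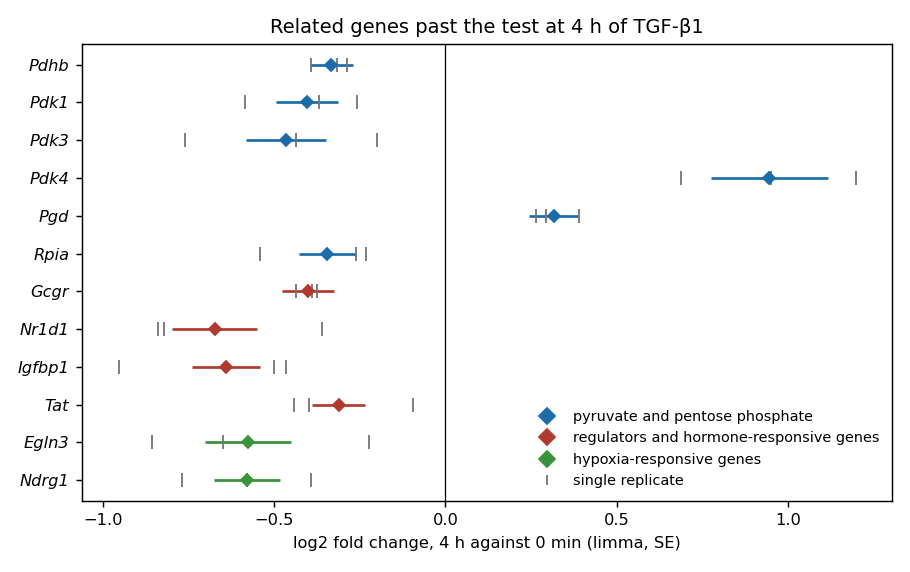
Log2 fold change at 4 h against 0 min (horizontal axis, limma estimate with SE) of the 12 genes past the test in 3 lists of related genes, with ticks for the 3 replicates. Pdk4, at 0.95, and Pgd, at 0.32, lie above 0 and the other 10 below.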

How the data were processed

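RNA of mouse HPC was hybridised to 12 Affymetrix Mouse Gene 1.0 ST arrays, 3 per group. For the deposited log2 values the authors ran RMA (robust multi-array averaging: background correction, quantile normalization and summary of probe sets) with Affymetrix Power Tools, whose version is not given in the sources used here. The study names FARMS and a ComBat batch correction for its results, and in the deposited table replicate 1 stands apart. Values ran from 3.84 to 15.2, with array medians of 6.82 to 6.93 and 0 missing values. No array was identical to another. The number of arrays limits the precision.

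Of 35556 probe sets, 21789 with 1 symbol were tested, and 1621 with several symbols and 12146 not listed were left out. A gene with several probe sets was taken by the one with the highest mean signal, and the other probe sets of Pgk1, Pgam1 and Pkm were not called either. The model was limma 3.58.1 in R 4.3.3 on all 12 arrays with time and replicate number as factors (6 residual and 5.39 prior degrees of freedom), with Benjamini-Hochberg adjustment over all tested probe sets. The study used the replicate as a factor, so the numbers were taken to pair the samples. Deviations from the group means correlated between arrays of the same number at 0.555 to 0.881, and arrays of different numbers were not compared. Where replicate 1 alone stands apart, the other replicates deviate together from the group mean and would correlate under any numbering. The correlations therefore cannot decide whether the numbers pair those other replicates. The fit was tested on simulated data with known changes.

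Of the 29 genes, those called, or changed by at least 0.5, in any comparison were given full statistics. The rule for the lists of related genes was up to 4 called genes per list with the smallest adjusted p. Beyond it, the called genes Pdk3 and Rpia, the uncalled genes Pck1 and Gys1 and the uncalled ones of the 29 given with values were chosen after their values were seen. The genes and lists were chosen with earlier results of these data known. Alternatives were no replicate factor, the replicate as a random effect, the compared groups alone, all probe sets, a filter at the median signal, quantile normalization, array weights, centring on the median, a prior that is trended and robust, the mean of the probe sets of a gene, the threshold of the study, and leaving out single replicates and single arrays. Other time points and cell types of the study were not used here. Groups, with the one at 20 min, are those of the sample labels.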

Additional observations from a re-analysis of the deposited data

Results flagged for a closer look

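The change of Pfkfb3 at 4 h differed from its change at both earlier times by the test of the difference itself. Its log2 fold change was -0.18 ± 0.07 at 20 min, -0.12 ± 0.07 at 2 h and -0.67 ± 0.07 at 4 h, all against the same control arrays. The difference was -0.55 ± 0.07 between 4 h and 2 h and -0.48 ± 0.07 between 4 h and 20 min (limma, adjusted p = 0.0349 and 0.0136). Without the replicate factor the adjusted p of these differences was 0.284 and 0.0804. Without replicate 1, 2 or 3 it was 0.0594, 0.222 and 0.352 for 4 h against 2 h, and 0.0107, 0.263 and 0.38 for 4 h against 20 min.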

How the results depend on the processing

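The count of 4 genes lower at 4 h than control was 1 with no replicate block, with the block as a random effect, with the compared groups alone and with all probe sets, 0 at the threshold of the study and 6 with a trended and robust prior, which added Fbp1 and Khk; it ranged from 0 to 5 when a replicate or an array was left out (1 without replicate 1, 1 without replicate 2, 0 without replicate 3, 1 without control replicate 1 or any single 4 h array, 2 without control replicate 2). The count of 0 higher was 1 with array weights. The count of 1 lower at 4 h than at 2 h was 0 with no replicate block, the random effect, the compared groups alone, all probe sets and the threshold of the study, and 0 to 1 with samples left out. That of 1 lower at 4 h than at 20 min was 0 with no replicate block, the compared groups alone, all probe sets and the threshold of the study, 3 with array weights and 0 to 1 with samples left out. Over the time-course, the count of 1 was 0 with all probe sets and with no replicate block, 3 with a trended and robust prior, 4 with array weights and 0 to 2 with samples left out. The counts at 20 min and 2 h were 0 under every alternative run. No gene was called in opposite directions, and the called genes named in the text kept their sign. At 4 h, 11 of the 29 genes, none of them called, changed sign under some alternative, among them Hk1 with the mean of its probe sets (-0.01), with opposite-sign values no larger than 0.08 and adjusted p of at least 0.667. Pfkl, Ppp1r3b and Ugp2 passed without control replicate 3, and Slc2a1 without 2 h replicate 2 (adjusted p = 0.0316, 0.048, 0.0368 and 0.0332). Each of these genes stayed uncalled in the other 24 of 25 alternatives.

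Of 25 alternatives, not counting the threshold of the study, which none passed, Pfkfb3 at 4 h passed in 24, Pcx in 13, Gys2 in 12 and Ppp1r3c in 10, with highest adjusted p of 0.0663, 0.996, 0.706 and 0.996. Over all genes, 636 were lower and 330 higher at 4 h, against 19 and 11 with no replicate block, 72 and 27 without replicate 2 and 16 and 15 without replicate 3. The cause was not tested. The 3 arrays per group limit the precision.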
